A study of Mus musculus with 12 samples.

Results

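The Slc4 family of bicarbonate transporters was followed through 5 of its genes, Slc4a2, Slc4a3, Slc4a4, Slc4a7 and Slc4a8, in hippocampal slices treated with an ischemic solution and the anion transport inhibitor DIDS. Their probes were found by name, since the names carry the gene number of each target: 7 probes of the 46628 on the Illumina Mouse-6 array belonged to the 5 genes, among 8102 genes that could be named in this way. Of the 7 probes, 6 were detected on all 9 distinct arrays and were tested. The second Slc4a4 probe, scl0054403.2_10-S, was detected on 0 of 9 arrays and is described only as not above background.

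Organotypic hippocampal slice cultures of C57BL/6J mice, from animals of mixed gender, were kept for 2 h in 1 of 4 media, and total RNA of the whole slice was measured. Control ACSF slices stayed in artificial cerebrospinal fluid. IS slices were in ischemic solution, ACSF + DIDS slices in artificial cerebrospinal fluid with DIDS (a stilbene disulfonate with reactive isothiocyanate groups), and IS + DIDS slices in ischemic solution with DIDS. Each group has 3 titles. The labels used here give no animal age, no dose of DIDS and no composition of the ischemic solution, and do not say whether replicates were separate cultures, so p-values measure the spread between these samples, which may be technical.

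Slc4 proteins carry bicarbonate across the plasma membrane and so set the pH of cells and of the fluid around them. Slc4a2 (AE2) and Slc4a3 (AE3) exchange chloride for bicarbonate without sodium and load cells with acid. Slc4a4 (NBCe1), an electrogenic sodium bicarbonate cotransporter, is the main bicarbonate entry route of astrocytes. Slc4a7 (NBCn1) is an electroneutral sodium bicarbonate cotransporter, and Slc4a8 (NDCBE) is a sodium-driven chloride bicarbonate exchanger of neurons. DIDS reacts with lysines of several of these proteins and blocks their transport, with NBCn1 known as comparatively insensitive. The arrays measured mRNA and not transport.

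The 12 scanner files hold 9 distinct arrays. In 3 pairs of files 0 of 46628 signals differed: IS 2 and ACSF + DIDS 3, ACSF + DIDS 1 and IS + DIDS 2, and IS + DIDS 1 and IS + DIDS 3. The authors' deposited table of normalized intensities, in contrast, has 12 distinct columns, 3 per group. In it 9 scanner files followed the column of their own title (r of at least 0.9994 over 13074 bright probes). The scanner files titled IS 2, ACSF + DIDS 1 and IS + DIDS 1 followed the columns of ACSF + DIDS 3, IS + DIDS 2 and IS + DIDS 3 instead (r = 1.0000 each), against 0.9690, 0.9776 and 0.9588 with their own. Fitted differences are therefore given from 7 scanner arrays (3 Control ACSF, 2 IS, 1 ACSF + DIDS and 1 IS + DIDS, without those filed in 2 groups) and beside them from the 12 columns. ACSF + DIDS 2 is titled ACSF + DIDS and described as IS + DIDS, and was kept under its title. The column of IS + DIDS 1 stood apart, with a median correlation with the other columns of 0.964 against 0.977 to 0.984, and a loading of 0.83 on the first principal component (28.5% of the variance) against -0.29 to 0.15. Differences printed over the 12 columns that include the IS + DIDS group are also given without it where leaving it out moved them by more than 0.1 on the log2 scale.

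Slc4a4 is the member the results turn on, and the promoters from which it can start are shown for that reason. RefSeq (GRCm38.p6) lists 2 start windows on the plus strand of chromosome 5, each of 300 bases around the start. The cores of the hypoxia response element, ACGTG and GCGTG, were searched on both strands, and matches are in capitals. The files hold no probe sequences, so which of the transcripts the Slc4a4 probes read is not known here.
Slc4a4, upstream start, chr5:88887010-88887309: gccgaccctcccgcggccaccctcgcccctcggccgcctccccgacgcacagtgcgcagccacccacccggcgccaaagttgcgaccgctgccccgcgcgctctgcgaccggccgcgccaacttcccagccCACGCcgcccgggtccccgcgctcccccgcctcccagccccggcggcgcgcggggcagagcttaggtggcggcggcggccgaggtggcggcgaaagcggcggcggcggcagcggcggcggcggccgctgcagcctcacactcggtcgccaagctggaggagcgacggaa
Slc4a4, downstream start, chr5:89027716-89028015: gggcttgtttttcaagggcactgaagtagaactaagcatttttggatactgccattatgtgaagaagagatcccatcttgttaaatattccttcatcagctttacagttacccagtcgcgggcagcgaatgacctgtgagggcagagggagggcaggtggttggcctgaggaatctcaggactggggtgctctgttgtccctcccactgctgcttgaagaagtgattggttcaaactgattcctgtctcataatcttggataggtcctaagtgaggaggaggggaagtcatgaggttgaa
The upstream window has a GC content of 80.0% and 1 core, a GCGTG on the minus strand, read here as CACGC. The downstream window has 48.3% GC and 0 cores. Of 32851 promoter windows of the same length, 19.6% hold ACGTG, 32.4% hold GCGTG and 43.8% hold either, so the match is a description of these letters only. Slc4a2 (2 cores in its first window on chromosome 5 and 0 in its second) and Slc4a3 (2 cores, chromosome 1) hold cores as well, whereas the windows of Slc4a7 (chromosome 14) and Slc4a8 (chromosome 15) hold 0.

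Slc4a4 had its highest mean level in ischemic solution and its lowest in ischemic solution with DIDS. In the authors' normalized intensities its detected probe, scl054403.19_44-S, read 1767, 1853 and 1419 in Control ACSF 1 to 3 and 2550, 1841 and 1848 in IS 1 to 3. With DIDS it read 1126, 1095 and 2129 in ACSF + DIDS 1 to 3 and 1743, 858 and 688 in IS + DIDS 1 to 3. The IS and IS + DIDS values did not overlap. How many of all probes separate likewise was not counted, for this or any other member, so such separations are descriptions only. ACSF + DIDS 3 and IS + DIDS 1 were each far above the other arrays of their group, and ACSF + DIDS 3 lay above all 3 controls. On the log2 scale the group means were 11.00 ± 0.26 in IS, 10.70 ± 0.20 in Control ACSF, 10.43 ± 0.54 in ACSF + DIDS and 9.99 ± 0.69 in IS + DIDS (SD, n = 3 each). Neighbours in this order differed by 0.30, 0.27 and 0.44, each with an SE of 0.318 (adjusted p = 0.879, 0.856 and 0.431, limma), so their order is not set beyond the spread between samples. Without IS + DIDS 1 the last of these differences, IS + DIDS against ACSF + DIDS, was -0.83 (SE 0.26, adjusted p = 0.134).

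**Figure D1:**
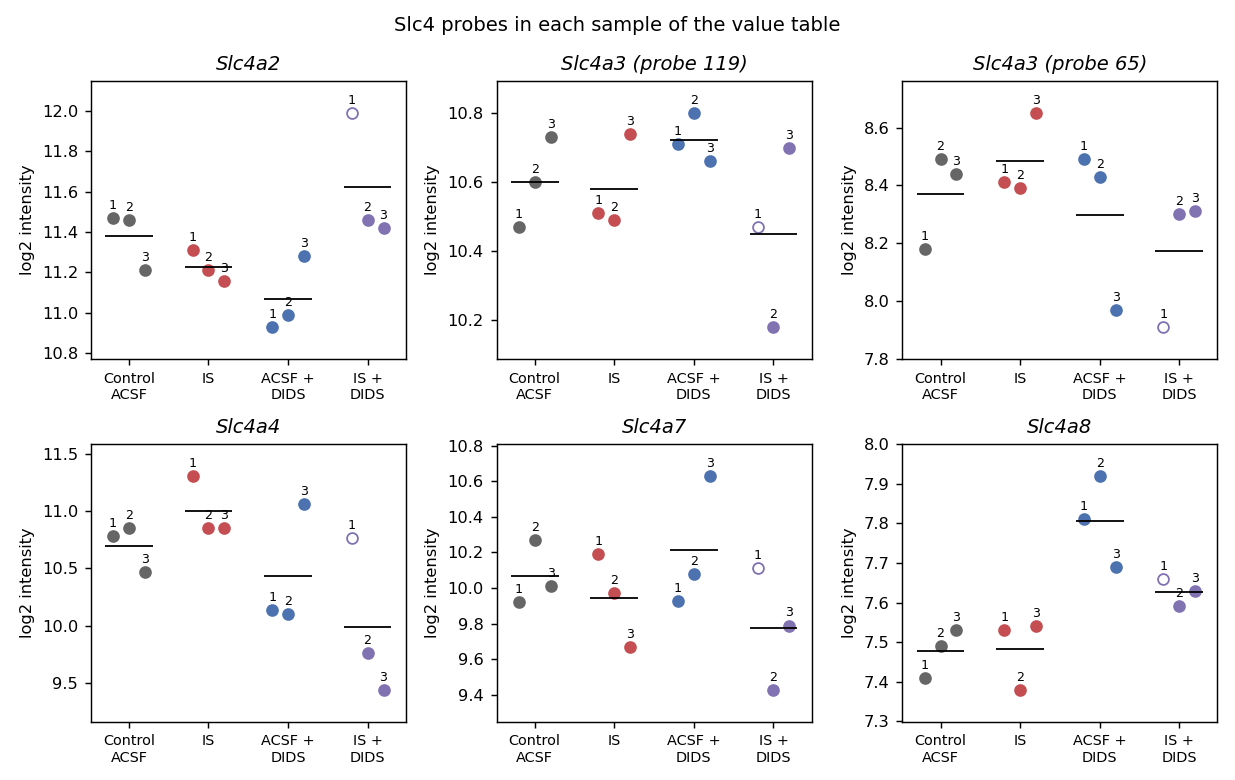
Normalized log2 intensity of the 6 tested Slc4 probes (vertical axes, each with its own range) in the 12 columns of the authors' table, by group; points are samples numbered by replicate, lines are group means, and the open point is IS + DIDS 1. For Slc4a4 the IS + DIDS points lie below all IS points, and the open point lies far above IS + DIDS 2 and 3.

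What DIDS did during ischemic solution is read from IS + DIDS against IS. Over the 7 scanner arrays Slc4a4 was 3.76-fold lower in IS + DIDS, a log2 difference of -1.91 (SE 0.283), which did not pass over all probes (unadjusted p = 0.00124, adjusted p = 0.19, limma). Here the IS + DIDS group is a single array that is assumed to vary like the others, and no spread of IS + DIDS enters the SE. The SE draws on the spread among the Control ACSF and the IS arrays, which limma moderates by that of all tested probes. The single IS + DIDS array read 9.07 against 11.25 in IS 1 and 10.72 in IS 3, and on chip 2, which carried IS 3 and IS + DIDS, the difference was -1.65, with no test. With chip as a block it was -1.69 (adjusted p = 0.127). Over the 12 columns the difference was -1.01 (SE 0.318, 2.01-fold lower, unadjusted p = 0.00754, adjusted p = 0.109). Without IS + DIDS 1 it was -1.40 (SE 0.26, 2.64-fold lower) and passed, with an adjusted p of 0.0179. Over the 9 columns that have their own scanner file, which also leave out IS + DIDS 1, it was -1.48 (adjusted p = 0.0419). Both of these fits were added after the data were seen. With the 2 arrays filed in 2 groups added under their value table titles, which made 9 scanner arrays, the difference was -1.73 (adjusted p = 0.0765), and with them counted as IS and IS + DIDS it was -1.71 and passed (adjusted p = 0.0315). The adjusted p of this difference ranged from 0.0179 to 0.492 over all choices tried, and Slc4a4 was lower in IS + DIDS in each of them. No scanner array followed the column of IS + DIDS 1, so each fit that passed lacked that sample. The choices are not independent, since they reuse largely the same IS + DIDS arrays. Of all probes 0% passed over the 7 arrays, 3.03% over the 12 columns, 2.93% without IS + DIDS 1, 1.47% over the 9 columns and 0.855% with the shared arrays counted as IS and IS + DIDS.

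**Figure D2:**
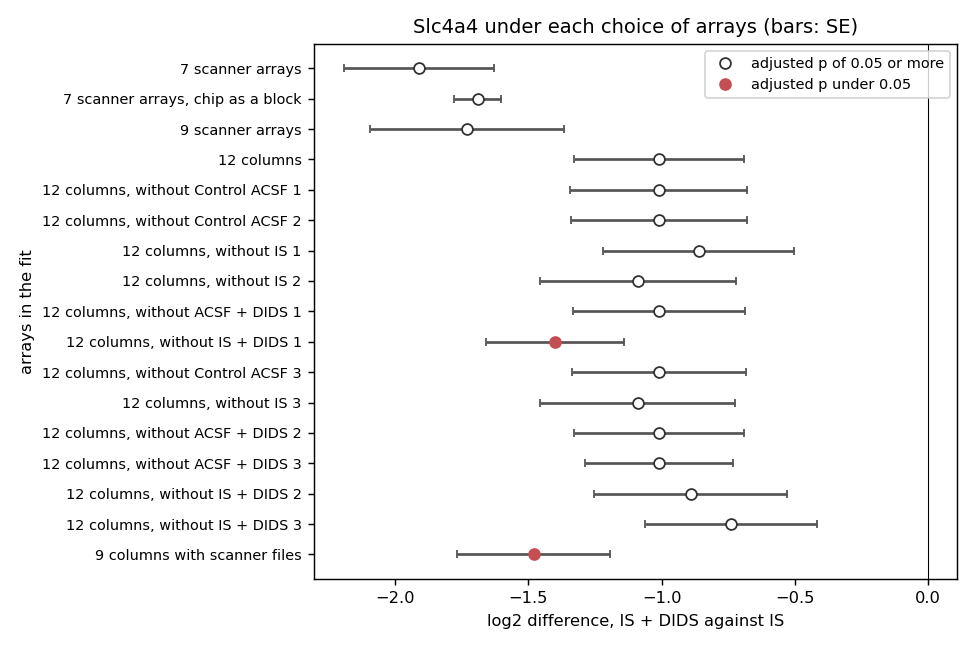
Log2 difference of Slc4a4 between IS + DIDS and IS (horizontal axis) for 17 of the choices of arrays (vertical axis), with bars for the SE; filled points had an adjusted p under 0.05. All plotted estimates lie below 0. The filled points are the fit without IS + DIDS 1 (-1.40) and the 9 columns with their own scanner file (-1.48), which also lack IS + DIDS 1.

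In the other comparisons Slc4a4 did not pass. Ischemic solution alone gave a log2 difference from Control ACSF of 0.45 (SE 0.211, adjusted p = 0.543) over the 7 arrays, which was 0.18 without IS 1 and 0.71 without IS 3. DIDS in ACSF gave -0.69 (SE 0.266, adjusted p = 1) over the 7 arrays, where the group is the single array ACSF + DIDS 2, and -0.27 over the 12 columns, where ACSF + DIDS 3 is included. Those 12 columns gave -0.58 without ACSF + DIDS 3, -0.10 without ACSF + DIDS 2 and -0.12 without ACSF + DIDS 1. IS + DIDS against ACSF + DIDS gave -0.77 over the 7 arrays (adjusted p = 0.884). The interaction, which asks whether DIDS changed Slc4a4 differently in the 2 media, was -1.22 (SE 0.388, adjusted p = 0.829) over the 7 arrays and -0.74 (SE 0.45, adjusted p = 0.568) over the 12 columns, so a difference between media was not established. Single columns moved the latter value, to -1.13 (adjusted p = 0.241) without IS + DIDS 1, -0.43 without ACSF + DIDS 3 and -0.47 without IS + DIDS 3. These comparisons share samples, among them the IS + DIDS and ACSF + DIDS arrays.

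Pooling the media asks for an effect of DIDS in either. The 3 scanner arrays with DIDS read 9.84, 9.43 and 9.07 for Slc4a4, below all 5 without DIDS at 10.28 to 11.25. The log2 difference was -1.27 (SE 0.233, 2.41-fold lower, unadjusted p = 0.000664, adjusted p = 0.117, limma), and 0% of all probes passed. Without ACSF + DIDS 2, the array whose title and description conflict, it was -1.46 and passed (adjusted p = 0.0461), and with array weights it was -1.37 and passed (adjusted p = 0.0287), in a range of adjusted p from 0.0287 to 0.49 over all choices tried. Of all probes 1.41% passed without ACSF + DIDS 2 and 5.23% with array weights. Without ACSF + DIDS 2, the DIDS arrays left followed the columns of IS + DIDS 2 and IS + DIDS 3. That fit thus sets IS + DIDS against both media without DIDS, and cannot show an effect of DIDS in either medium. Every array with DIDS was on chip 2, while Control ACSF 1, Control ACSF 2 and IS 1 were on chip 1. DIDS is thus partly confounded with chip. Neither fit that passed had a term for chip, and with chip as a block 0 probes passed. Within chip 2 the Slc4a4 difference was -1.05 (adjusted p = 0.354). The array filed under both IS 2 and ACSF + DIDS 3 is not among these 8 arrays. It read 10.93, within the range of the 5 arrays without DIDS. Its signals followed the column of ACSF + DIDS 3, so the separation above depends on leaving this array out. The 12 columns, which include it under ACSF + DIDS 3, gave -0.64 (SE 0.234, adjusted p = 0.247), with 0.419% of all probes passing, and -0.75 (adjusted p = 0.15) without IS + DIDS 1. In these columns ACSF + DIDS 3 (11.06) and IS + DIDS 1 (10.77) lay within the range of the samples without DIDS, 10.47 to 11.31.

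Slc4a4 and its tissue markers were read in the same bulk RNA, in which fewer cells of a type and less RNA per cell cannot be told apart. The detected markers of the slices included Rbfox3 and Syt1 of neurons and Gfap and Aqp4 of astrocytes. Aqp4, the water channel of astrocyte endfeet, read 13499, 11281 and 12488 in IS 1 to 3 and 13448, 9103 and 8313 in IS + DIDS 1 to 3. It was low in IS + DIDS 2 and 3, as Slc4a4 was, and, with 14939 in ACSF + DIDS 3 against 8217 and 10768 in ACSF + DIDS 1 and 2, high in the same ACSF + DIDS sample. Gfap read 15911 to 20232 in IS and 12034 in IS + DIDS 1, 16779 in IS + DIDS 2 and 14387 in IS + DIDS 3. IS + DIDS 1 also differed from IS + DIDS 2 and 3 in Fgfr3, a growth factor receptor (118 against 281 and 264), and in S100b, a calcium binding protein (5564 against 2473 and 2150). S100b read 2599, 2363 and 2649 in IS. Fgfr3 read 500, 428 and 357 in IS, above its values in each IS + DIDS sample. Slc1a2, the glutamate transporter of astrocytes, was not lower in IS + DIDS (239, 239 and 263) than in IS (200, 181 and 247). Its probe was detected on 9 of 9 arrays but was dim, much like the Slc4a8 probe (168 to 244), which limits this reading. The 5 of 10 listed astrocyte markers that were measured (Aqp4, Fgfr3, Gfap, S100b and Slc1a2) summed to 32279 to 38883 in Control ACSF, 31652 to 36532 in IS, 27025 to 38074 in ACSF + DIDS and 25376 to 31403 in IS + DIDS, with none of the 5 at 0. These sums are made up mostly of Gfap and Aqp4, so they say little about Fgfr3. The part of astrocyte markers in the Slc4a4 difference was not tested. The 5 of 10 neuronal markers measured summed to 19903 to 26504 in IS and 21474 to 22919 in IS + DIDS. These sums are made up mostly of Rbfox3, Syt1 and Slc17a7, so they say little about Map2 and Tubb3. The 3 of 8 oligodendrocyte markers measured summed to 13125 to 15470 in IS and 11618 to 16694 in IS + DIDS. The 4 of 8 microglial markers measured summed to 5948 to 7031 in IS and to 10589, 8080 and 5751 in IS + DIDS 1 to 3. Dcn, the 1 of 9 endothelial and meningeal markers measured, read 1771 to 2413 in Control ACSF, 2045 to 2565 in IS, 3141 to 5078 in ACSF + DIDS and 2383 to 4870 in IS + DIDS. The part of these markers was not tested either.

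**Figure D3:**
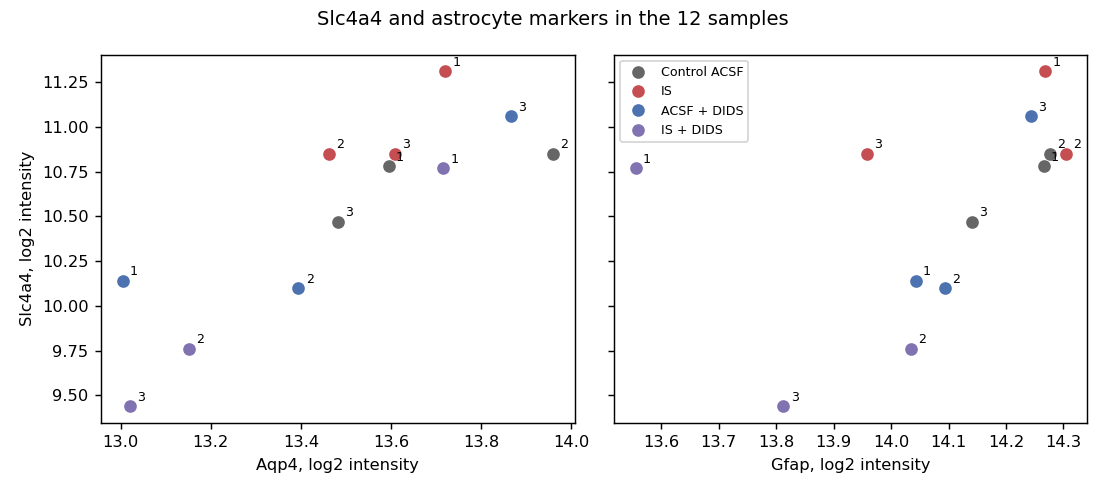
Log2 intensity of Slc4a4 (vertical axis) against Aqp4 (left) and Gfap (right) in the 12 columns of the authors' table, coloured by group and numbered by replicate. IS + DIDS 2 and 3 are low in Slc4a4 and in Aqp4, and IS + DIDS 1 is the lowest in Gfap while its Slc4a4 is near the controls.

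The other sodium-coupled carriers, Slc4a7 and Slc4a8, did not pass in any comparison over the 7 arrays or the 12 columns. Slc4a7, probe scl0218756.18_6-S, read 974, 1236 and 1037 in Control ACSF and 1170, 1009 and 816 in IS. With DIDS it read 969, 1081 and 1600 in ACSF + DIDS and 1102, 681 and 873 in IS + DIDS, so that all groups overlapped. Its log2 difference of IS + DIDS from IS was -0.17 (SE 0.211, adjusted p = 0.723) over the 12 columns and -0.33 (adjusted p = 0.439) without IS + DIDS 1. That of IS + DIDS from ACSF + DIDS was -0.44 (SE 0.211, adjusted p = 0.252), and -0.60 (adjusted p = 0.186) without IS + DIDS 1, with ACSF + DIDS 3 the highest and IS + DIDS 2 the lowest of the 6 samples compared.

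Slc4a8 read higher in the samples given DIDS, by a small margin that did not pass and in a probe near the detection limit. Probe scl059033.25_59-S read 171, 180 and 185 in Control ACSF, 185, 168 and 186 in IS, 226, 244 and 207 in ACSF + DIDS and 198, 192 and 197 in IS + DIDS. The 6 samples with DIDS lay above the 6 without, which is a description only, as the share of all probes separated in this way was not counted. The log2 difference of ACSF + DIDS from Control ACSF was 0.33 (SE 0.099, 1.26-fold, unadjusted p = 0.00519, adjusted p = 0.264, limma) over the 12 columns. Over the 7 arrays, with 1 ACSF + DIDS array, it was 0.14. With both media pooled the difference of DIDS from no DIDS was 0.24 (SE 0.076, adjusted p = 0.195) over the 12 columns. Over the scanner arrays it was 0.07 (SE 0.037, adjusted p = 0.456). The detection score of this probe was 0.994 to 0.999, and the offset added in the scanner fit compresses differences at such low intensity. These differences did not pass.

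The chloride bicarbonate exchanger Slc4a2 had its highest mean in ischemic solution with DIDS. Probe scl020535.23_4-S read 2840, 2824 and 2344 in Control ACSF, 2558, 2390 and 2282 in IS, 1946, 2040 and 2482 in ACSF + DIDS, and 4110, 2795 and 2718 in IS + DIDS. The IS + DIDS samples lay above all IS and all ACSF + DIDS samples, with IS + DIDS 1 far above the others. Against ACSF + DIDS the log2 difference was 0.56 (SE 0.156, 1.47-fold, unadjusted p = 0.00366, adjusted p = 0.0794, limma) over the 12 columns, 0.37 (adjusted p = 0.182) without IS + DIDS 1, and 0.47 (SE 0.180, adjusted p = 0.836) over the 7 arrays, in a range of adjusted p from 0.0672 to 1 over all choices tried. Against IS it was 0.40 (adjusted p = 0.195) over the 12 columns, 0.21 (adjusted p = 0.414) without IS + DIDS 1 and 0.21 (adjusted p = 0.688) over the 7 arrays. DIDS in ACSF gave -0.42 (SE 0.147, adjusted p = 1) over the 7 arrays and -0.31 (adjusted p = 0.614) over the 12 columns. The interaction of medium and DIDS was 0.63 (SE 0.214, unadjusted p = 0.0344, adjusted p = 0.862) over the 7 arrays and 0.71 (SE 0.221, unadjusted p = 0.00718, adjusted p = 0.25) over the 12 columns, or 0.52 (adjusted p = 0.284) without IS + DIDS 1. None of these passed. Slc4a2 is also abundant in choroid plexus epithelium, for which 1 of 6 listed markers was measured, Clic6. The Clic6 probe was detected on only 5 of the distinct arrays. It read 108 to 449 in Control ACSF and 79 to 388 in IS. With DIDS it read 65 to 74 in ACSF + DIDS and 134 to 187 in IS + DIDS. The ACSF + DIDS values and the lowest IS value lay below the column medians of 80.6 to 82.5. They are not read as above background, so the fall in ACSF + DIDS gives no measure of choroid plexus content. The part of choroid plexus in the Slc4a2 differences was not tested.

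Slc4a3, the exchanger of neurons and heart, was read by 2 probes. Probe scl0020536.1_119-S read 1418 to 1709 in Control ACSF, 1446 to 1704 in IS, 1626 to 1787 in ACSF + DIDS and 1157 to 1650 in IS + DIDS, and its groups overlapped. Probe scl020536.5_65-S read 292, 363 and 346 in Control ACSF, 340, 339 and 403 in IS, 359, 347 and 251 in ACSF + DIDS, and 235, 313 and 315 in IS + DIDS. Its IS + DIDS values lay below its IS values, by -0.31 on the log2 scale (SE 0.164, adjusted p = 0.342) over the 12 columns, -0.18 (adjusted p = 0.614) without IS + DIDS 1 and -0.12 (SE 0.108, adjusted p = 0.747) over the 7 arrays. For the first probe the same difference was -0.13 over the 12 columns and 0.10 over the 7 arrays. The 2 probes correlated at 0.35 over the 12 columns, given as a description of samples that fall in 4 groups.

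Over the 7 arrays 0 of 6 probes passed in each comparison (limma, adjusted p under 0.05). The share of all 16723 tested probes that passed was 0.0179% for IS against Control ACSF (0% with the replicate number as a block) and 0% for IS + DIDS against IS, ACSF + DIDS against Control ACSF, IS + DIDS against ACSF + DIDS and the interaction. At an unadjusted p under 0.05 there were 0, 1, 2, 0 and 2 of the 6 probes in these 5 comparisons and 1 for DIDS against no DIDS, all of them Slc4a4 or Slc4a2. Of all tested probes 10.9%, 12.6%, 3.94%, 5.98%, 5.64% and 15% had such a p in these 6 comparisons. Over the 12 columns 0 of 6 passed as well, where the share of all 16717 tested probes was 0.897%, 3.03%, 0.61%, 2.55% and 0.544% in the same order, and 0, 2, 1, 1 and 1 probes, with 2 for DIDS against no DIDS, had an unadjusted p under 0.05, beside 8.97%, 18.4%, 8.72%, 21.1%, 10.9% and 13.5% of all tested probes. With 6 probes the shares that passed the adjusted threshold come to less than 1 probe, so the counts of 0 do not set the family apart. For IS + DIDS against IS the median log2 difference of the 6 probes was -0.05 over the 7 arrays and -0.15 over the 12 columns, beside 0.015 and 0.028 for all tested probes.

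**Figure D4:**
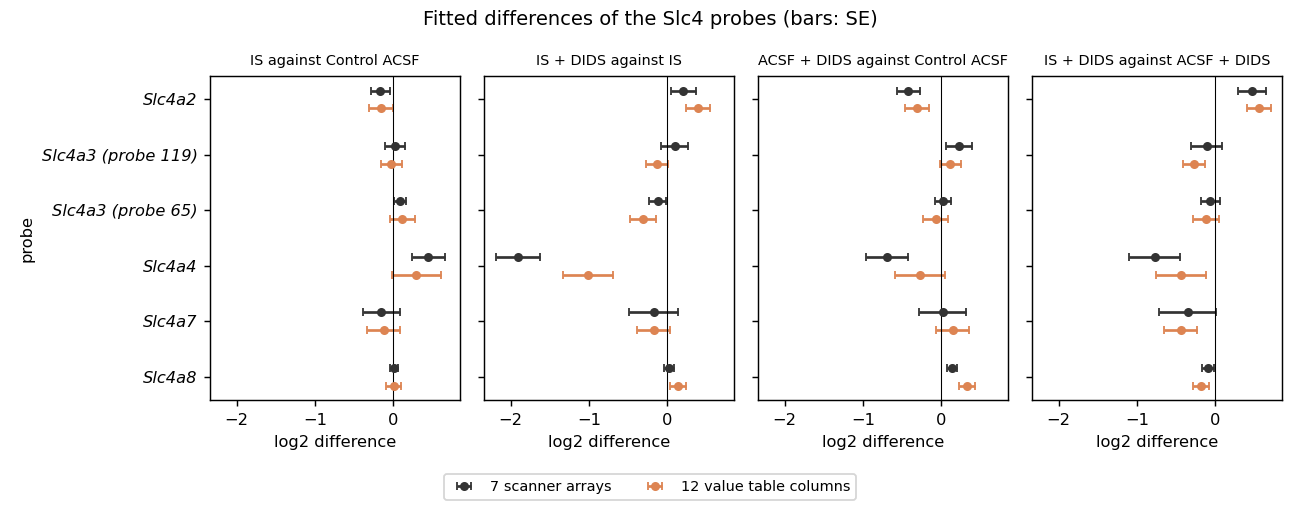
Fitted log2 differences (horizontal axes) with SE bars of the 6 tested Slc4 probes (vertical axis) in 4 comparisons, from the 7 scanner arrays (dark) and the 12 columns of the authors' table (orange). Slc4a4 in IS + DIDS against IS is the estimate farthest from 0 in both, at -1.91 and -1.01.

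Of 46 other listed genes of acid and base transport, 15 had a named probe and 5 were tested, among them the sodium proton exchanger Slc9a2 and the carbonic anhydrases Car5b and Car15. None of the 5 other listed Slc4 genes, 1 of the 5 monocarboxylate transporter genes and 2 of the 11 Slc26 genes had a named probe, and none of these was tested. In each comparison 0 of the 5 genes passed over the 7 arrays and over the 12 columns. Slc9a2, an exchanger of the plasma membrane, had an unadjusted p of 0.0381 for IS against Control ACSF over the 12 columns (log2 difference 0.39, SE 0.167, adjusted p = 0.511), and 0.16 (adjusted p = 0.644) over the 7 arrays.

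Each tested probe was also set against 5011 named probes by the correlation of normalized log2 intensity over the 9 scanner arrays. These correlations describe samples that share groups, chips and processing, and carry no p. Slc4a4 was nearest to Stat3, the transcription factor of cytokine signalling (r = 0.980), Bpnt2, a phosphatase of the Golgi (r = 0.975), and Zfhx3, a zinc finger homeobox factor (r = 0.971). Over the 12 columns these were 0.81, 0.86 and 0.88. Slc4a2 was nearest to Klhl25, Cdca7l and Etaa1 (0.906, 0.904 and 0.881), and Slc4a7 to Lypd6, Trps1 and Miga1 (0.933, 0.918 and 0.911). The first Slc4a3 probe was nearest to Syt1, a calcium sensor of synaptic vesicles, E2f6 and Sox5 (0.896, 0.889 and 0.860), whereas the other was nearest to Slc24a4, Pcif1 and Unc13b (0.938, 0.922 and 0.889), so the 2 probes shared none of these. Over the 12 columns the first Slc4a3 probe gave 0.81, 0.48 and 0.90 with its genes, and the other 0.64, 0.72 and 0.84. Slc4a2 gave 0.89, 0.83 and 0.92 there, and Slc4a7 0.89, 0.86 and 0.89. Slc4a8 was nearest to Mettl23, Acad9 and Scg2 (0.922, 0.901 and 0.883), which fell to 0.57, 0.44 and 0.71 over the 12 columns. Among the members, the 15 pairs of tested probes correlated between -0.67 (Slc4a2 and the second Slc4a3 probe) and 0.60 (Slc4a4 and Slc4a7) over the 12 columns.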

How the data were processed

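Total RNA of 12 titled samples was measured on Illumina Mouse-6 v1.1 arrays. The deposited scanner signals are bead intensities without normalization, exported by BeadStudio 2.3.47 per the file headers (the submitters' processing notes name 2.0). The deposited detection values are per the file headers a score from 0 to 1, near 1 for probes above the negative controls. The other deposited columns, bead numbers, bead spread and gene number text, served for identity checks. The authors' deposited value table holds normalized linear intensities for 46301 probes with column medians of 80.6 to 82.5, by a method not given in the sources used here. Its log2 scale is taken here. Its centring across arrays is otherwise unknown.

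In R 4.3.3, the neqc function of limma 3.58.1 corrected the background (offset 16, controls inferred from detection scores), and signals were quantile normalized as log2 values. The tests covered 16723 of 46628 probes, those whose detection score passed 0.99 on 3 or more of the 9 distinct arrays. The value table was put on the log2 scale and quantile normalized, with 16717 of these probes. A limma model with 1 coefficient per group gave 4 pairwise differences and the interaction, and a second model over 8 arrays, or 12 columns, compared DIDS with no DIDS. P-values were adjusted by Benjamini-Hochberg over all tested probes, with a threshold of 0.05. The model was tested on simulated data. Deviations of same-numbered samples from their group means correlated over 0.1 in each of 3 pairs of Control ACSF with IS (0.14 to 0.43) and of IS with IS + DIDS (0.13 to 0.20), a pairing read from the data and not from the labels, and in 0 of 3 pairs of Control ACSF with ACSF + DIDS and 1 of 3 of ACSF + DIDS with IS + DIDS. Differently numbered samples also correlated, up to 0.41 (IS + DIDS 1 with ACSF + DIDS 3). Control ACSF 1 correlated at 0.25 with IS 2 and 0.20 with IS 1. Of 12 samples, 6 had their highest correlation with a sample of their own number. The pairing is thus uncertain, and the replicate number as a block is an alternative throughout.

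The files name no genes. Zero-padded probe numbers were read as gene numbers, since 82.6% of 11857 were in the gene table, against 46.0% after adding 1. Unpadded numbers were not read as genes (11.3% against 11.0%). Median raw signal was 69.5 to 131.9, with 35 to 36 beads per probe and 32.8% to 35.6% of probes detected. This limits the precision of dim probes, as does the number of arrays. The highest median and the lowest share detected were both those of IS 1, and the other medians were 69.5 to 83.6. IS 1 also had the highest Slc4a4 level of the scanner arrays, 11.25. Chip 1 carried Control ACSF 1 and 2 and IS 1, and chip 2 the other 6 arrays. The members and lists were chosen with earlier results of these data known. All member probes are named, with up to 3 acid and base genes per comparison by smallest p and the 3 most alike genes per probe. Some values that this rule would name are not reported here. Where several probes of a listed gene passed the detection filter, the brightest stood for it.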

Additional observations from a re-analysis of the deposited data

How the results depend on the processing

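Of 219 counts of Slc4 probes called under alternative settings, 214 stayed at 0. A count of 1, Slc4a4 each time, was reached for IS + DIDS against IS with the 2 shared arrays counted as IS and IS + DIDS, over the 9 columns with their own scanner file, and without IS + DIDS 1 in the 12 columns (range 0 to 1 over the columns left out in turn), and for DIDS against no DIDS with array weights and without ACSF + DIDS 2 (range 0 to 1 over the arrays left out in turn). Settings added after seeing the data were all that leave columns out of the value table, its block fit and chip 1 alone. The Slc4a2 difference of IS + DIDS from IS turned to -0.03 where ACSF + DIDS 2 was counted as IS + DIDS. Otherwise the 12 differences followed through all settings kept their sign, and of 24 others, 18 changed sign in at least 1 setting. The Slc4a4 difference of IS + DIDS from IS ran from -2.18 to -0.74 over 40 settings, and that of DIDS from -1.46 to -0.49 over 35. With the replicate number as a block, which changed no call of a member, 0 probes of the family passed in any comparison, and the Slc4a4 difference of IS + DIDS from IS was -1.69 (adjusted p = 0.228) over the 7 arrays and -1.01 (adjusted p = 0.11) over the 12 columns. Over all probes, IS against Control ACSF then had 0 calls in place of 3 over the 7 arrays. Counts over all probes differed between sources, with 3, 0, 0, 0, 0 and 0 over the scanner arrays against 150, 506, 102, 426, 91 and 70 over the 12 columns. The arrays of chip 2 alone leave no residual spread for the pairwise comparisons, which therefore have no test there.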
